A study of Rattus norvegicus with 88 samples.

Results

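The miR-183 cluster is a family of 3 microRNAs (miRNAs), rno-miR-183, rno-miR-96 and rno-miR-182 (written without the species prefix from here on), whose hairpins lie close together on 1 strand of the rat genome. They were chosen by their total gene signals over the 9 ages and by how these varied together, among the array's miRNAs of 1 genomic cluster, so levels by age and correlations between the members are given as a description. The array held 677 miRNAs, of which 314 were detected on at least 1 of 88 arrays, and all 3 members were among the 314. The livers came from untreated F344 rats of 1 breeding colony, 45 females and 43 males, killed at 2 weeks (young), at 5, 6, 8, 15 or 21 weeks (adult), or at 52, 78 or 104 weeks of age (old). Each group of 1 age and sex held 5 livers, except 4 for males of 5 and 104 weeks. Whole liver RNA was used with 1 animal on each array, and the estrus cycle of the females was not evaluated, so that a change in the number of a cell type and a change in the miRNA per cell cannot be told apart.

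Mature miRNAs guide a silencing complex to messenger RNAs that pair with bases 2 to 8 of the miRNA, the seed. The miR-183 cluster is best known from sensory organs, where its members are abundant in hair cells of the inner ear and in photoreceptors, and mutations in the seed of miR-96 cause progressive hearing loss. In other tissues miR-96 and miR-182 are known to repress FOXO1, a transcription factor of insulin signalling, and the cluster is often raised in liver cancer. The 3 members are printed because their seeds are alike but not the same, and because miR-182 and miR-183 also share most of the remaining bases. Capitals mark bases 2 to 8 of each mature sequence, written 5′ to 3′ as RefSeq gives them.
miR-183: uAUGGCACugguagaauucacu
miR-96: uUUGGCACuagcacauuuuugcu
miR-182: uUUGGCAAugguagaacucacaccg

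Counted from the 5′ end of the mature sequence, the seed of miR-96 differs from that of miR-183 by U2A and from that of miR-182 by C8A, and the seeds of miR-182 and miR-183 differ by U2A and A8C. Aligned from the 5′ end without gaps, miR-182 and miR-183 share 18 of 22 bases, miR-96 and miR-183 share 13 of 22, and miR-96 and miR-182 share 12 of 23. None of the 3 seeds is found in another of the 724 mature rat sequences in the RefSeq table. In the RefSeq annotation of the GRCr8 build, all 3 hairpins lie on the minus strand of chromosome 4. The Mir183 hairpin is at chr4:59756044-59756153, that of Mir96 at chr4:59755841-59755946 and that of Mir182 at chr4:59752246-59752307. The Mir183 and Mir96 hairpins are 97 bases apart, and Mir182 lies 3533 bases from Mir96, in a span of 3908 bases. The cluster is between genes, with Nrf1 14079 bases away on 1 side and Ube2h 45948 bases away on the other. A further annotated hairpin, Mir3553, overlaps Mir183 on the opposite strand, and miR-3553 was detected on no array. The array listed the other strands of 2 of the hairpins, miR-183* and miR-96*, and both were detected on 0 of the 88 arrays.

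Values are the total gene signal of a miRNA divided by the 75th percentile of the 314 miRNAs on the same array, so that 1 is the level of a miRNA at that percentile. This quantity is called the normalised intensity. The lowest detected value of an array is the lowest normalised intensity that any miRNA had on it, which ranged from 0.0120 to 0.137. It is not a limit for every miRNA, because detection also depends on the error of the probes of each. The level of miR-122, the main miRNA of hepatocytes, was the highest of all miRNAs on all 88 arrays, at a normalised intensity of 375 to 1284. The scans fell into 5 runs, and 1 of them (16 arrays) had a median 75th percentile of 145, against 48.8 to 80.0 in the other 4. Over all ages miR-96 was detected on 82 arrays, miR-183 on 29 and miR-182 on 24. By its mean over the 88 arrays, miR-96 ranked 89 among the 314 miRNAs, miR-183 ranked 198 and miR-182 ranked 238, and these ranks compare signals that depend on the probe. The error that the software gives for a detected value was a median of 8.56% of the signal for miR-96, 20.1% for miR-183 and 26.9% for miR-182.

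miR-96 was the member with the strongest signal, and its level was low at 2 weeks in both sexes, high from 5 weeks, and low again in females from 52 weeks. At 2 weeks it was detected in 2 of 5 females, at 0.0906 and 0.115, and in 4 of 5 males, at 0.0870, 0.0985, 0.104 and 0.118. At 5 weeks the females had 0.699, 0.724, 0.783, 0.806 and 0.912, and the males 0.755, 1.02, 1.07 and 1.26. At 6 weeks the females had 0.688 to 0.928 with a median of 0.825, and the males 0.638 to 1.49 with a median of 1.38. The lowest male at 6 weeks was below every female of that age, and the other 4 males were above all of them. At 8 weeks the ranges of the sexes overlapped, with 0.995, 1.17, 1.24, 1.30 and 1.93 in females and 1, 1.06, 1.06, 1.26 and 1.48 in males. On 3 arrays, the 8-week male 2, 21-week male 5 and 52-week male 5, miR-96 was itself the miRNA at the 75th percentile. Its value there is 1 by construction. The females of 8 weeks had the second highest group mean, after the males of 104 weeks.

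**Figure D1:**
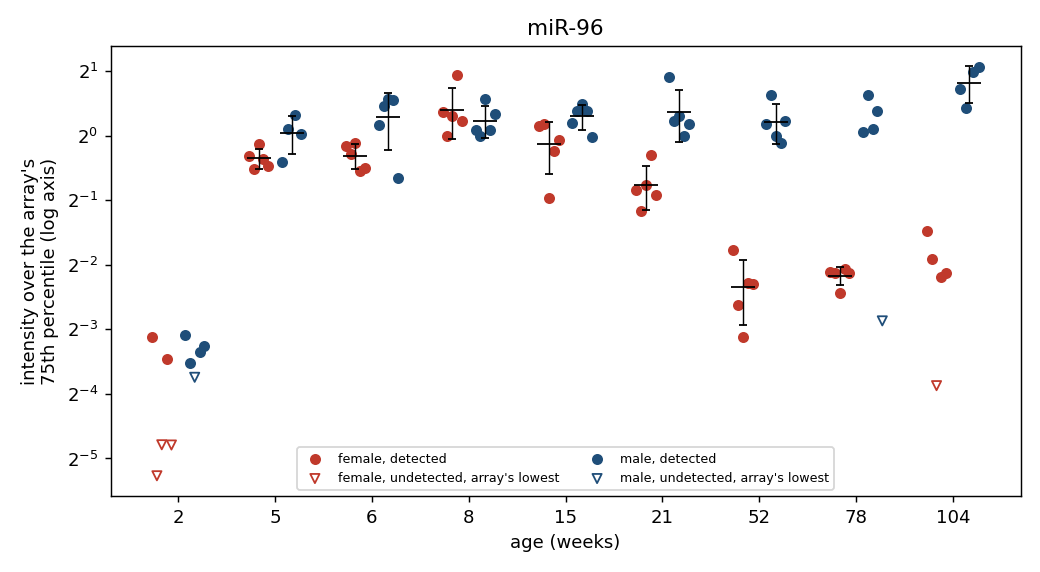
Normalised intensity of miR-96 (log axis) against age in weeks, 1 symbol per liver, with the mean ± SD of each group in which all arrays detected it; triangles stand at the lowest detected value, of any miRNA, on an array that did not. Females fall from a mean of 1.32 at 8 weeks to 0.196 at 52 weeks, while males have 1.16 to 1.28 from 8 to 52 weeks and reach 1.77 at 104 weeks.

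From 15 weeks the females declined and the males did not. The female mean was 0.912 ± 0.250 (SD, n = 5) at 15 weeks, 0.588 ± 0.138 at 21 weeks, 0.196 ± 0.0656 at 52 weeks and 0.222 ± 0.0217 at 78 weeks. The male mean was 1.23 ± 0.164 at 15 weeks, 1.28 ± 0.348 at 21 weeks and 1.16 ± 0.245 at 52 weeks (SD, n = 5 each). In females the mean at 52 weeks was 6.75-fold below that at 8 weeks, and in males the corresponding ratio was 1.01.

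In the individual old animals the separation of the sexes was wide. At 52 weeks the females had 0.116, 0.162, 0.205, 0.206 and 0.293, and the males 0.924, 1, 1.14, 1.17 and 1.56. Every male was above every female, which 3.5% of all miRNAs showed at this age. At 78 weeks the females had 0.184, 0.229, 0.229, 0.231 and 0.238, and 4 males had 1.04, 1.08, 1.30 and 1.54. The array of the remaining male, male 6, did not detect miR-96. At 104 weeks 4 females had 0.220, 0.229, 0.267 and 0.358 and female 5 was undetected, while the 4 males had 1.34, 1.65, 1.99 and 2.09. The 4 males of 104 weeks thus all lay above the detected females, and their mean of 1.77 ± 0.339 was the highest of the 18 groups.

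The arrays without a detected miR-96 could be followed further, because the signals of the probes are given whether or not the software called the miRNA detected. The sum of both miR-96 probe signals over the 75th percentile was 0.182 for the 104-week female 5, within the 0.116 to 0.358 of the 15 old females. In the 4 undetected rats of 2 weeks it was 0.0813 to 0.203. The 78-week male 6 differed, with a sum of 0.0155 and an error of 0.115, while the other old males had 0.924 to 2.09. The lowest detected value of that array was the highest of the 88, at 0.137, and it detected 138 miRNAs, near the lowest number of 134.

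miR-183, transcribed from the hairpin nearest to miR-96, was seen on fewer arrays and at a level of 0.0722 to 0.249 where detected. No array of 2 weeks detected it. At 5 weeks it was detected in 2 of 5 females (0.116 and 0.117) and in 3 of 4 males (0.113, 0.117 and 0.162). At 6 weeks 1 of 5 females (0.0926) and 3 of 5 males (0.159, 0.162 and 0.187) had a detected value.

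At 8 weeks detection was more frequent in females. All 5 females of 8 weeks had miR-183, at 0.0865, 0.128, 0.165, 0.169 and 0.180, against 1 of 5 males, at 0.115. With the scan runs numbered by time, these females were all in runs 3 and 4, and the males were spread over runs 1 to 5. Sex and scan run are thus partly confounded at this age. In run 2 miR-183 was detected in 0 of 4 adult males and 0 of 4 adult females, and in run 1 in 0 of 1 adult male. Adult males of runs 3 and 4 had it on 3 of 7 and 6 of 8 arrays. At 15 weeks miR-183 was detected in 3 of 5 females (0.0722, 0.0825 and 0.112) and 1 of 5 males (0.129), and at 21 weeks in no female and 2 of 5 males (0.101 and 0.145).

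In old rats miR-183 was detected in males alone. At 52 weeks 1 of 5 males had it (0.162), at 78 weeks 3 of 5 (0.109, 0.118 and 0.166) and at 104 weeks all 4 (0.154, 0.234, 0.248 and 0.249). None of the 15 old females had a detected value. Of the 6 old males without one, 5 had summed probe signals above the lowest detected value of their array, as did 4 of the 15 old females. The summed probe signals, which need no detection call, were 0.0108 to 0.0517 in the 15 old females and, in 13 of 14 old males, higher than all of these. By such sums 13 or more of the old males were above every old female for 1.59% of the 314 miRNAs, miR-96 among them. The remaining male was again the 78-week male 6, whose sum was -0.166, below 0 after background subtraction. The males of 78 weeks also held the lowest sums of any group for miR-182 (-0.167), miR-183* (-0.253) and miR-96* (-0.172). No array detected miR-183* or miR-96*. The part of background subtraction in the low sums of male 6, that of miR-96 included, was not tested.

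miR-182 was the weakest of the members, and its detected values were 0.0286 to 0.0976. It was detected in 3 of 5 females and 3 of 4 males at 5 weeks, in 1 and 2 at 6 weeks, in 4 and 2 at 8 weeks, in 2 and 0 at 15 weeks, and in 1 and 1 at 21 weeks. In old rats no female had it. It was detected in 2 of 5 males of 52 weeks, both at 0.0729, in none at 78 weeks, and in 3 of 4 males of 104 weeks, at 0.0570, 0.0704 and 0.0976. No array of 2 weeks detected miR-182.

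**Figure D2:**
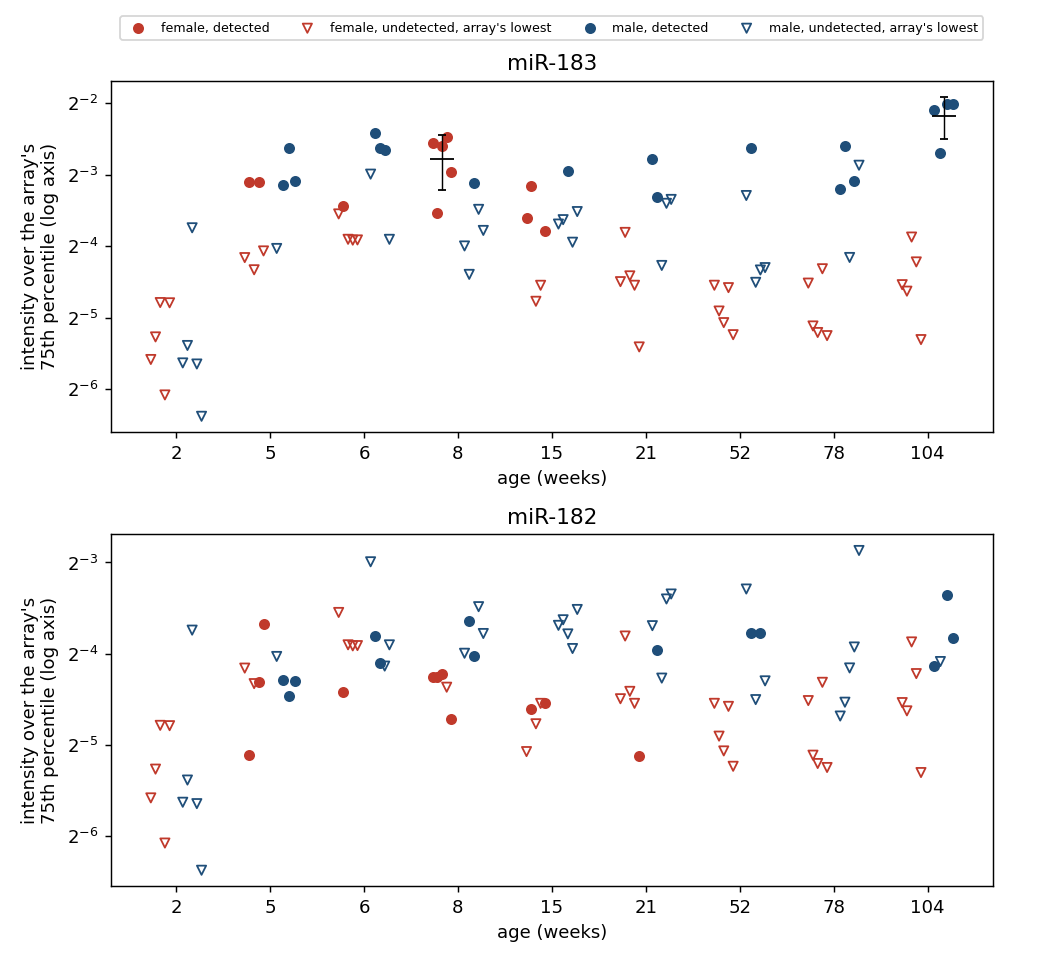
Normalised intensity (log axes) of miR-183 (upper panel) and miR-182 (lower panel) by age, 1 symbol per liver; filled circles are detected values, open triangles mark the lowest detected value, of any miRNA, on arrays without detection, and bars are mean ± SD where all arrays of a group detected the miRNA. In old rats filled circles of both members are seen in males alone, with all 4 males of 104 weeks for miR-183.

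The probes of miR-96 carried nearly the same signal, and those of miR-183 and of miR-182 did not. The array measured miR-96 with 2 probe sequences of 10 spots each, whose normalised signals had medians of 0.453 and 0.465 and a Pearson correlation of 0.99 over the 88 arrays. Both miR-183 probes moved together (r = 0.87) with medians of 0.0332 and 0.0800, and the second reached 3 times its error on 29 arrays and the first on 7. For miR-182 only 1 of 3 probes carried signal, with a median of 0.0344 and 24 arrays above 3 times its error, and the medians of the other two were below 0. Every detected miR-182 value therefore rests on 1 probe of 6 spots, while the summed probe signals add all 3. The total gene signal is the sum of the probes above 3 times their error, which held within 1% on every array that detected a member. For miR-183 it thus holds both probes on 7 arrays and 1 probe on 22, so its detected values are not on the same footing from array to array. With both probes summed on every array, the 3 highest values of miR-183 were 0.273 in a 6-week male, 0.267 in an 8-week female and 0.249 in a 104-week male.

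**Figure D3:**
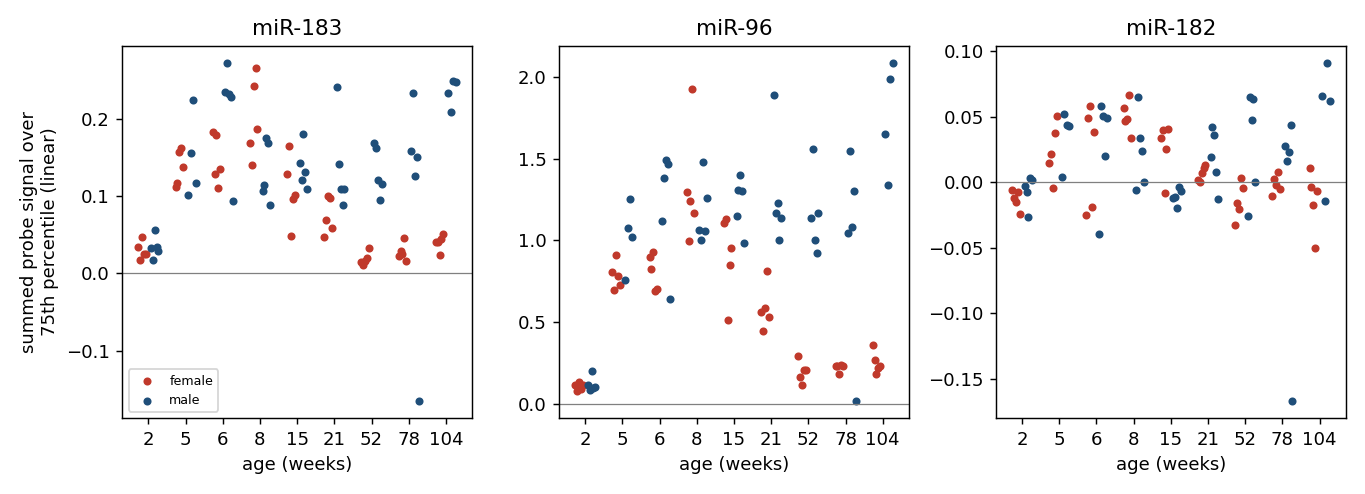
Sum of the probe signals of each member over the 75th percentile of the array (linear axes, detected or not) by age, 1 symbol per liver; values below 0 arise where the background exceeded the signal. For miR-96 the old females lie at 0.116 to 0.358, and the low male at 78 weeks is at 0.0155.

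Whether males and females differed was not used to choose the members, and the sexes were compared at each age with 1 limma model of all arrays, with Benjamini-Hochberg adjustment over the 314 miRNAs of an age. A call needed an adjusted p under 0.05 and at least 1.5-fold. Of the 27 comparisons of 3 members at 9 ages, 5 were called, and over all miRNAs and ages the share called was 6.09%. Males were higher in 4 of the 5 calls, all at 52 or 104 weeks, and females in 1, at 8 weeks.

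At 104 weeks all 3 members were higher in males, where 4.14% of the 314 miRNAs were called higher in males. miR-96 was 3.62 higher on the log2 scale (SE 0.698, limma adjusted p = 0.000155), and 2.72 without the undetected female 5 (adjusted p = 0.00349). It was not called when limma was fitted to the arrays of that age alone (adjusted p = 0.480), nor by the methods' t-test on those arrays (adjusted p = 0.578). miR-183 was 4.18 higher (SE 0.850, limma adjusted p = 0.000346). Because no female of this age had a detected miR-183, that difference depends on the value of 0.0120 set for undetected arrays. Set against the higher of the lowest detected value of each female array and its own miR-183 probe sum, miR-183 was at least 4.29-fold higher in the males. The call was lost after normexp and quantile normalization, where the difference of 0.22 was under 1.5-fold. miR-182 was 1.95 higher (SE 0.583, limma adjusted p = 0.0309), and 0.66 with undetected values at the lowest detected value of their own array (adjusted p = 0.395). In all, 8 of 15 alternatives ended the call of miR-182. It was also lost without female 7 or 8 or male 2, 4 or 5, with adjusted p of 0.0564, 0.0566, 0.132, 0.178 and 0.154.

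Every male was above every female at 104 weeks for miR-96 and miR-183, which 2.23% of all miRNAs showed. Among markers of biliary and other epithelium (miR-200a, miR-200b, miR-200c, miR-141 and miR-429), miR-200a and miR-200b were also called higher in males at 104 weeks, by 1.09 and 1.21 on the log2 scale (limma adjusted p = 0.0231 and 0.0238). The summed level of that list was 1.84 to 4.64 in the 4 males and 0.378 to 2.52 in the 5 females, and its part in the difference of the members was not tested. At 52 weeks the same sum was 0.928 to 1.80 in males and 0.590 to 1.58 in females, and none of the 5 markers was called. Of the markers of other cell types, miR-223 (leukocytes) was 0.81 higher and miR-375 (neuroendocrine cells) was 2.41 lower in males at 52 weeks (log2 differences of 0.81 and -2.41, limma adjusted p = 2.31e-05 and 0.0482). The other detected leukocyte markers were not called at 52 weeks and went both ways. Their log2 differences were -0.48 for miR-142-5p, -0.04 for miR-142-3p and 0.38 for miR-150. The hepatocyte sum (miR-122, miR-192 and miR-194) overlapped between old males (685 to 1137) and old females (691 to 1388).

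At 52 weeks miR-96 was 2.60 higher in males on the log2 scale, or 6.07-fold (SE 0.658, limma adjusted p = 0.00470), where 2.55% of the 314 miRNAs were called higher in males. It was 2.34 without the 16 arrays of the scan run with the highest signals, with an adjusted p of 0.0535. miR-183 and miR-182 were 0.75 and 1.04 higher in males at this age and were not called (adjusted p = 0.796 and 0.320). The value for miR-183 rests on 1 detected array of 10. The summed signals of both miR-183 probes at 52 weeks were 0.0957 to 0.170 in the 5 males and 0.0108 to 0.0333 in the 5 females, and no female probe passed 3 times its error. By such sums every male was above every female at 52 weeks for 3.82% of the 314 miRNAs.

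At 78 weeks no member was called, where 1.27% of the 314 miRNAs were called higher in males. The difference of miR-96 was 1.14 (limma adjusted p = 0.344), and without male 6 it was 2.47 (adjusted p = 0.000560), so that this 1 array decides the call. miR-183 was 2.05 higher in males (adjusted p = 0.107). The markers called at 78 weeks were miR-223 (leukocytes), with a log2 difference of 0.61, and miR-216a and miR-217 (pancreas) and miR-145 (smooth muscle), with differences of -3.06, -2.24 and -2.70. miR-216a, miR-217 and miR-145 were detected on 16, 5 and 31 of the 88 arrays, so their sizes depend on the value set for undetected arrays. The other stellate and smooth muscle markers had -0.37 to -0.03 and were not called. The other detected leukocyte markers had 0.11 to 0.33 and were not called. At 21 weeks miR-96 was 1.12 higher in males, with every male above every female, which 2.23% of all miRNAs showed. It was not called in the model of all arrays (adjusted p = 0.435), in which 2.55% of the 314 miRNAs were called higher in males. It was called when limma was fitted to the arrays of that age alone (adjusted p = 0.0192). The markers called at 21 weeks were miR-451, with a log2 difference of 0.83, and miR-375, with one of -2.59.

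At 8 weeks miR-183 was 2.90 lower in males on the log2 scale (-2.90, SE 0.801, limma adjusted p = 0.0159), where 4.46% of the 314 miRNAs were called higher in females. The sums of its probe signals, which give undetected arrays their own value, were 0.140 to 0.267 in the 5 females and 0.0891 to 0.176 in the 5 males, so that these ranges overlap. Sex and scan run were partly confounded at this age. The call was lost in 4 of 15 alternatives, with the scan run as a block (adjusted p = 0.0832), with undetected values at the lowest detected value of their own array (adjusted p = 0.112), with both (adjusted p = 0.204) and after normexp (adjusted p = 0.202). Of the marker miRNAs, miR-200b (epithelium) and miR-451 (erythroid cells) were called at 8 weeks, 1.03 and 0.96 higher in males on the log2 scale (limma adjusted p = 0.0408 and 0.0112). The other epithelial markers were not called and went both ways, with 0.68 for miR-200a, 0.46 for miR-429 and -1.17 for miR-141. miR-200c was detected on 10 of the 88 arrays. The other erythroid marker, miR-144, was 1.17 higher and was not called. The part of these cell types in the difference of miR-183 was not tested. For miR-96 at 8 weeks the difference was -0.16 with a 95% interval of -1.47 to 1.16, and for miR-182 it was -0.60 with an interval of -1.69 to 0.50.

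**Figure D4:**
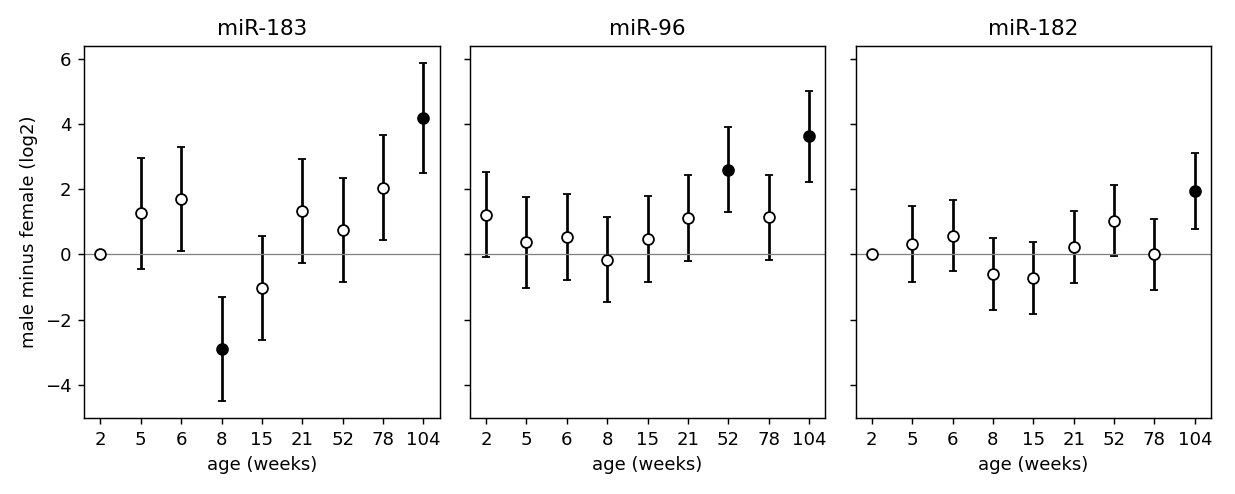
Male minus female difference (log2) of each member at each age from the limma model, with 95% confidence intervals and no interval at 2 weeks for members undetected in both sexes; filled circles passed the adjusted p and the 1.5-fold threshold. The 5 filled circles are miR-183 at 8 and 104 weeks, miR-96 at 52 and 104 weeks and miR-182 at 104 weeks.

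For miR-96 and miR-183 the sexes also differed in the change from adult (5 to 21 weeks) to old age (52 to 104 weeks), tested as the interaction of sex with that change. For miR-96 the change in males minus that in females was 1.98 on the log2 scale (SE 0.489, limma adjusted p = 0.00801), and for miR-183 it was 2.25 (SE 0.595, limma adjusted p = 0.0154). As no old female had a detected miR-183, the size of the latter depends on the value set for undetected arrays, and it was 1.30 with these at the lowest detected value of their own array (adjusted p = 0.000367). For miR-182 it was 1.04 (95% interval 0.22 to 1.85, limma adjusted p = 0.299) and was not called. Across all miRNAs the interaction was called for 6 of 314, or 1.91%, and the other 4 were miR-125b-5p, miR-99a, miR-34a and miR-203. Without the 16 arrays of the scan run with the highest signals, neither call held, with 1.80 for miR-96 (adjusted p = 0.0730) and 1.70 for miR-183 (adjusted p = 0.410). Both calls were also lost with the 75th percentile taken over all miRNAs of the array (adjusted p = 0.525 and 0.314) and after normexp, where the values of 0.55 and 0.15 were under 1.5-fold, and that of miR-183 with the replicate number as a block (1.87, adjusted p = 0.109).

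Given as a description, the change from adult to old in females was -2.21 for miR-96, -1.43 for miR-183 and -0.84 for miR-182, and in males -0.23, 0.82 and 0.20 (log2 differences of group means). For miR-183 and miR-182 these sizes follow from how many arrays detected them and from the value of 0.0120 set for the others. In the same contrast in females, 3 of the 5 skeletal muscle markers were called lower (log2 differences of -3.42 for miR-1, -3.64 for miR-133b and -2.22 for miR-206), and their list summed to 0 to 21.2 in adult and 0 to 0.275 in old females. In both sexes miR-375 was called higher in old rats (1.47 in females and 1.92 in males) and miR-200b lower (-0.63 and -0.78). The part of these tissues in the change of the members was not tested. The call of a change with age counted all 3 members in each sex, where 52.5% of the 314 miRNAs were called in females and 59.2% in males. As ages chose the members, nothing is read from that count.

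The number of arrays that detect a member does not depend on the value set for undetected arrays. In old rats miR-183 was detected in 8 of 14 males and 0 of 15 females (two-sided Fisher's exact test p = 0.0007, adjusted over 314 miRNAs p = 0.220), and miR-182 in 5 of 14 and 0 of 15 (exact p = 0.0169, adjusted p = 1). In old rats 0% of the 314 miRNAs passed that adjustment of Fisher's exact test, and 7 had an unadjusted p under 0.05. In adult rats miR-183 was detected in 10 of 24 males and 11 of 25 females, and miR-182 in 8 of 24 and 11 of 25. miR-96 was detected in all 49 adult livers, and in 13 of 14 old males and 14 of 15 old females.

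The result in old rats was also read within each scan run. miR-96 was higher in old males in each of the 4 runs that held both sexes, by 4.28, 2.64, 2.38 and 2.98 on the log2 scale, and the first of these set 3 males, with the undetected 78-week male 6 among them, against the undetected female 5. For miR-183, undetected in every old female, detection in old males in the same runs was 0 of 3, 3 of 5, 2 of 2 and 3 of 4, and for miR-182 it was 1 of 3, 2 of 5, 0 of 2 and 2 of 4.

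The members were detected together in an ordered way. All 3 were detected on 20 arrays, miR-183 and miR-96 without miR-182 on 9, miR-96 and miR-182 without miR-183 on 4, miR-96 alone on 49 and none on 6. Neither miR-183 nor miR-182 was detected on an array without miR-96. Of the 21 arrays with miR-96 detected below 0.5, none detected the other members, and of the 7 at 1.5 or above, all 7 detected miR-183 and 4 detected miR-182. Arrays of 5 weeks or more that detected miR-183 also detected more miRNAs in all, a median of 188 against 165 on those that did not, and the part of array sensitivity in this order was not tested.

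Where both were detected, miR-96 was 5.99 to 13.4 times miR-183 on the same array, with a median of 9.22 over 29 arrays. The ratio of miR-96 to miR-182 was 9.28 to 30.6, with a median of 21.1 over 24 arrays, and these ratios compare signals of different probes and are not ratios of copies. The spread of the first also depends on whether miR-183 holds 1 or 2 probes, and with all probes summed on the same arrays the ratios were 4.80 to 9.59 (median 7.08) for miR-183 and 14.2 to 44 (median 23.9) for miR-182. Over those arrays the log2 values of miR-183 and miR-96 had a Pearson correlation of 0.75 (n = 29), and those of miR-96 and miR-182 one of 0.57 (n = 24). With all probes summed these were 0.78 and 0.68. Over all 88 arrays, with undetected values at their floor, the correlations were 0.50 for miR-183 with miR-96, 0.64 for miR-183 with miR-182 and 0.37 for miR-96 with miR-182. After the mean of each age and sex was removed they were 0.29, 0.51 and 0.04. All values of an array share its hybridisation and its 75th percentile.

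**Figure D5:**
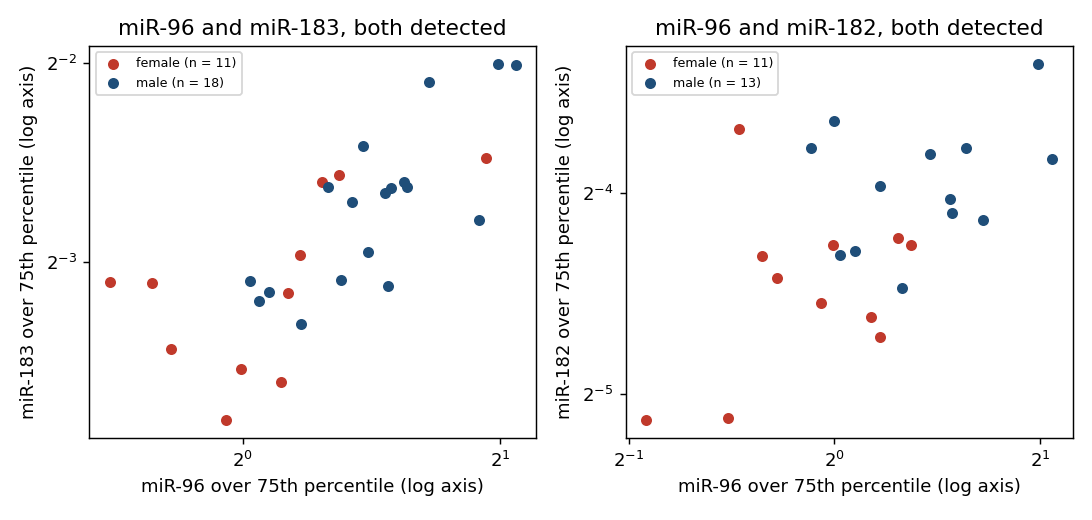
Normalised intensity of miR-183 (left, 29 arrays) and miR-182 (right, 24 arrays) against that of miR-96 on the same array (log axes), for arrays that detected both, with females in red and males in blue. The miR-183 values hold both probes on 7 arrays, with 0.248 and 0.249 in males of 104 weeks among them, and 1 probe on 22.

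Outside the cluster, the miRNAs whose log2 values followed miR-96 most closely over the 88 arrays, among 171 other miRNAs detected on 44 arrays or more, were miR-16 (r = 0.71), miR-31 (r = 0.70) and miR-31* (r = 0.67). The group means of miR-16 were 8.20 in males and 11.0 in females at 2 weeks and 14.0 to 20.8 later. miR-31 had group means of 1.15 in males and 1.78 in females at 2 weeks, 3.15 to 4.0 in adults of either sex, 2.36 to 3.30 in old females and 3.57 to 4.16 in old males. For miR-183 the closest were miR-511* (r = 0.41), miR-532-3p (r = 0.40) and miR-532-5p (r = 0.40), and for miR-182 miR-93 (r = 0.43), miR-211* (r = 0.41) and miR-425 (r = 0.40). These are correlations over the same arrays, which share age groups and scaling.

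In the order of the 18 group means of the summed miR-96 probe signals, males of 104 weeks came first and females of 2 weeks last. Of the 17 neighbouring pairs in that order, 16 had overlapping ranges. The exception was the step from the females of 21 weeks (0.445 to 0.815) to the females of 104 weeks (0.182 to 0.358), which parts the females of 52 weeks or more and the rats of 2 weeks from all other groups, apart from the single low male of 78 weeks. For miR-183 and miR-182 all 17 neighbouring pairs overlapped.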

How the data were processed

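Liver miRNA was hybridised to 88 one-colour Agilent rat arrays. Per the file headers, the deposited spot and total gene signals are linear intensity values with background subtracted by Feature Extraction 10.7.3.1, with 0.1 for an undetected miRNA, and the detection flags are 0 or 1. The authors also deposited a table of ratio values, the total gene signal over the 75th percentile of each array. Each signal was divided by the 75th percentile of the 314 expressed miRNAs of its array, undetected signals were set to 0.0120, and log2 was taken. limma 3.58.1 in R 4.3.3 was fitted to 18 groups of age and sex, with Benjamini-Hochberg adjustment over 314 miRNAs and a 1.5-fold minimum. Scans parted by more than 8 hours gave 5 runs. The procedure was tested on simulated data. The normexp alternative used the median spot signal, since no mean signal was used here. The rule for named miRNAs was the 3 members, the other strands of their hairpins, the 3 most correlated miRNAs of each, and the cell type markers. miR-3553, and the miRNAs with a called interaction, were named after their values were seen. Members, lists and tests were chosen with earlier results of these data known. The number of arrays limits the precision.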

Additional observations from a re-analysis of the deposited data

Results flagged for a closer look

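In groups of 4 or 5 livers, a sample was singled out where its gap to the nearest other sample exceeded Dixon's 95% critical value. Of 41 groups of a member tested, 15 held such a sample. In 7 of these it was the lone array on which the member was detected, and in 6 the lone one on which it was not. As undetected arrays share 1 value, the rate of about 1 in 20 groups that chance gives for measured values does not apply to these. The lone detected values of miR-183 were 0.0926 in the 6-week female 2, 0.129 in the 15-week male 3, 0.162 in the 52-week male 10 and 0.115 in the 8-week male 4. Those of miR-182 were 0.0286 in the 21-week female 6, 0.0467 in the 6-week female 2 and 0.0640 in the 21-week male 3.

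A lone undetected array, with the deposited signal of 0.1, stood apart in 6 groups. These were the 5-week male 1 for miR-183 and for miR-182, the 8-week female 5 for miR-182, and the 2-week male 3, the 78-week male 6 and the 104-week female 5 for miR-96. The other 2 were detected and lowest of their groups, miR-183 in the 104-week male 3 at 0.154 and miR-96 in the 78-week female 3 at 0.184. The miR-183 value of that male holds 1 probe and those of the other 3 males hold both. With both probes summed it was 0.210, against 0.234 to 0.249 in the others.

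The change from adult to old age differed between the sexes in a test of that difference, by 2.25 for miR-183 and 1.98 for miR-96 (male minus female, log2 scale, limma adjusted p = 0.0154 and 0.00801). Of 13 alternatives, 4 ended the call for miR-183 and 3 that for miR-96, with 0.15 and 0.55 after normexp and quantile normalization.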

How the results depend on the processing

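The number of sex differences called among the members, 5 of 27, was 11 with undetected values at the lowest detected value of their own array, 9 with undetected values at the lowest raw signal before scaling, 2 after normexp and quantile normalization, 4 to 7 under the other alternatives, and 4 to 7 when 1 array was left out. After normexp the number of member and sex pairs called by age was 2 in place of 6 (5 to 6 without 1 array). The interaction lost its call for miR-183 with the 75th percentile over all miRNAs (2.66), after normexp (0.15) and without the scan run of highest signal (1.70), and for miR-96 under the same settings (1.86, 0.55 and 1.80), while miR-182 gained it with the lowest raw signal (0.86). Without 1 array the interaction was 2.00 to 2.43 for miR-183, 1.68 to 2.43 for miR-96 and 0.91 to 1.25 for miR-182. The change from adult to old in males turned for miR-96 with undetected values at the lowest detected value of their own array (0.0044) and after normexp (0.065), with a range of -0.37 to 0.22 without 1 array, and for miR-182 at that value (-0.079), also with the scan run as a block (-0.0996). Above a common level of 0.137 the detection in males minus that in females turned to 8.83 percentage points for miR-183 in adults and 6.19 for miR-96 in old rats, where leaving out 1 array gave -7.14 to 6.67. The cause of these shifts was not tested. The settings without that scan run, and with run and that value together, were chosen after seeing the data. Weak signals limit miR-183 and miR-182.

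Replicate numbers were shared between groups, but the labels did not tie them to a litter or a day. Males and females of 1 age with the same number had deviations that correlated by over 0.1 in 17 of 33 pairs, so they were not treated as pairs. With the replicate number as a block, 4 of 27 sex differences were called, and the interaction of miR-183 was 1.87 (limma adjusted p = 0.109).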
